A study of Mus musculus with 4 samples.

Results

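Mmp8, Mmp9, Mmp12, Mmp19 and Mmp25 are the matrix metalloproteinase genes that are best known from blood and marrow cells. They were taken by name as 5 of the 31053 genes of the count matrix, and all 5 were detected. Their levels were described in neutrophil stages, monocytes, macrophages, osteoclasts and, for Mmp9, osteoblasts of the growing tibia. The cells came from 1 male mouse at postnatal day 6 (P6), whose 2 tibiae were pooled. It carried Col10a1Cre and Rosa26-Tdtomato, so that hypertrophic chondrocytes (HCs), where the Col10a1 promoter is active, and their descendants express tdTomato. It also had 1 changed Irx3 and 1 changed Irx5 allele (Irx3 +/Δ;Irx5 +/-). The study writes Irx3 as +/ΔHC, where ΔHC stands for a change made by Col10a1Cre in the HC lineage. Irx5 +/- holds for all cells. The library was labelled a heterozygous control. Its cells were freed by enzyme digestion, which also releases marrow, and were not sorted. The 4 entries of the series have 1 matrix, whose cells cannot be split by entry, and were taken as 1 library. There is thus neither a replicate that can be told apart nor a mouse of another genotype, and values are described with counting intervals and without tests.

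Matrix metalloproteinases are zinc-dependent enzymes that are made as inactive proforms and cut collagens and other proteins outside the cell. MMP8 is the collagenase of neutrophils, stored in their specific granules, and MMP9 (gelatinase B) is stored in gelatinase granules of neutrophils and is also made by osteoclasts. MMP12 is the elastase of macrophages, MMP19 is a widely expressed family member found in myeloid cells, and MMP25 is held at the neutrophil surface by a lipid anchor. Neutrophils mature in the marrow from promyelocytes, which make azurophil granule proteins such as neutrophil elastase (Elane), through myelocytes, which make specific granule proteins such as lactoferrin (Ltf) and neutrophilic granule protein (Ngp), to late forms that are ready to leave the marrow.

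The 5 genes lie on 4 chromosomes of GRCm38. Mmp8 (ENSMUSG00000005800, chr9:7558456-7568485, plus strand) and Mmp12 (ENSMUSG00000049723, chr9:7344381-7369499, plus strand) belong to the Mmp gene cluster of chromosome 9. Mmp9 (ENSMUSG00000017737) is at chr2:164940780-164955850 on the plus strand. Mmp19 (ENSMUSG00000025355) is at chr10:128790910-128800824 on the plus strand, and Mmp25 (ENSMUSG00000023903) is at chr17:23628311-23645277 on the minus strand. The end of Mmp12 overlaps Mmp1b, which is on the other strand and had 0 UMIs. Of the members, Mmp8, Mmp12 and Mmp25 had an entry in the RefSeq promoter table (GRCm38.p6) and Mmp9 and Mmp19 had none. The 250 bases before each annotated start are shown for these 3 genes, so that the letters near their starts can be read beside their levels. They are printed 5′ to 3′ on the strand of the gene. Capitals mark matches on either strand to motifs of myeloid transcription factors, namely AP-1 (TGACTCA), the ETS motif of PU.1 type (GAGGAA) and C/EBP (TTNNGCAA).
Mmp8 (chr9:7558179-7558428, plus strand): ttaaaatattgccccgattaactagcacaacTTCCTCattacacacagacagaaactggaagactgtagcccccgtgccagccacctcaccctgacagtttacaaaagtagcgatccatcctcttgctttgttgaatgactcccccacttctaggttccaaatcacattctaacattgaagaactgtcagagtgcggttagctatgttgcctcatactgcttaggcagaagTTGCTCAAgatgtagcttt
Mmp12, upstream start (chr9:7344147-7344396, plus strand): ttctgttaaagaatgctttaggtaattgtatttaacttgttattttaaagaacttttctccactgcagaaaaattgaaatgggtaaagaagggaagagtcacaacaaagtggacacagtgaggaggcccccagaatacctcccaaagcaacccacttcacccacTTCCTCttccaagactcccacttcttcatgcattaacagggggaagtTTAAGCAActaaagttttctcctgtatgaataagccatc
Mmp12, downstream start (chr9:7347124-7347373, plus strand): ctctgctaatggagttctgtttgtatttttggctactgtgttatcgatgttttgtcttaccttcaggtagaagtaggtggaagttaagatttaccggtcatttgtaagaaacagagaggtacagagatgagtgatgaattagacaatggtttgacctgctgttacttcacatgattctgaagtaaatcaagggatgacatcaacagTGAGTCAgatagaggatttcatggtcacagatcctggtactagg
Mmp25 (chr17:23645270-23645519, minus strand): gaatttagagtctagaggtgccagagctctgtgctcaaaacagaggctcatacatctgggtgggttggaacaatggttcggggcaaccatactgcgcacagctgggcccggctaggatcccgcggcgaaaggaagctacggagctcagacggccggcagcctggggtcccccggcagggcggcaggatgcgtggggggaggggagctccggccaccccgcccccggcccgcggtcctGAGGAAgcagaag
The Mmp8 window held a C/EBP match (TTGCTCAA) that begins 19 bases before the start and an ETS match (TTCCTC) at 219 bases. The upstream Mmp12 window held a C/EBP match at 39 bases and an ETS match at 86 bases, and the downstream Mmp12 window held only an AP-1 match (TGAGTCA) at 44 bases. The Mmp25 window held an ETS match at 13 bases. Over 32851 windows of the same length, 4.46% held the AP-1 letters, 23.3% the ETS letters and 9.56% the C/EBP letters. The looser NF-kB motif, which was found in 45.8% of all windows and in the upstream Mmp12 and the Mmp25 window, is not marked. These matches describe letters only. No motif overlapped another among the capitals.

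The matrix holds 158281984 UMIs (unique molecular identifiers, each standing for 1 captured transcript) in 14181 barcodes. Barcodes with fewer than 500 genes, over 10% of UMIs from mitochondria or over 50% from ribosomal protein genes were left out. The 10706 cells that remained had 657 to 85279 UMIs, with a median of 10903. Clustering without any Mmp gene gave 19 classes with 9713 cells, called "-like" after their marker genes. The other 993 cells (9.28%) stayed without a name, and Scrublet, a doublet caller, marked 328 of them. Among the unnamed was a myeloid sub-cluster of 154 cells led by Ace and Treml4, with 1 cell marked. It held 23 Mmp8 and 31 Mmp9 UMIs and is not part of the monocyte-like class. The names were rebuilt here, so that they need not match the study's own classes. A level is given in CPM, the counts of a gene per 1000000 UMIs of a class. Brackets hold 95% intervals, exact Poisson for levels and Clopper-Pearson for shares of cells, and these cover counting error only. A level in CPM cannot tell fewer cells with a transcript from less RNA in each cell. Free RNA gives some UMIs to cells that do not make a transcript, so that levels are read beside classes that should lack the gene.

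The late neutrophil-like class depends on the minimum of genes. Its 722 cells had a median of 2646 UMIs, and 689 of them (95.4%) held fewer than 1600 genes, a stricter minimum that was tried as an alternative. Among cells of at least 1600 genes 33 of the class remained. All levels of late neutrophil-like cells below come from the lower minimum.

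Of the members, Mmp8 had the widest gap between its highest class and the next. Its highest class was 16.5 times the next, whereas the highest class of Mmp9 was 1.24 times, that of Mmp12 1.29 times and that of Mmp19 1.68 times the next. Of 12216 genes with at least 10 CPM in a class, 8.16% had a highest class at least 4 times the next, and Mmp8 was the 1 of the 4 members tested that did. Mmp25, at under 10 CPM in every class, was not tested.

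**Figure D1:**
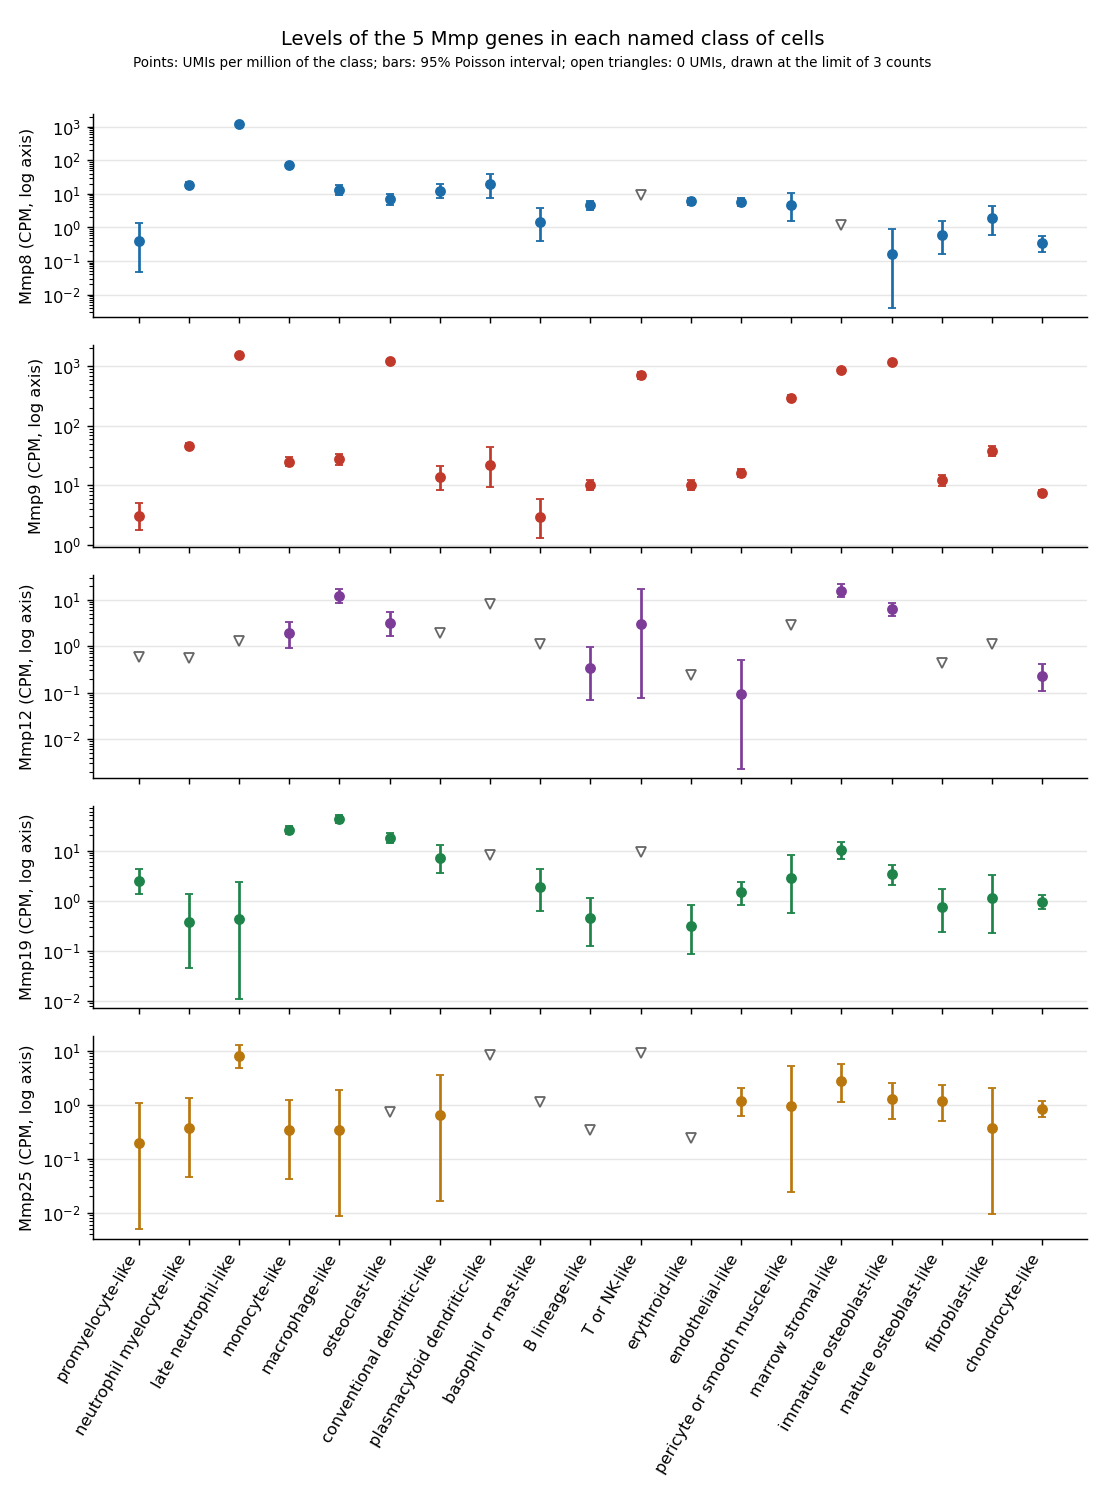
Levels of Mmp8, Mmp9, Mmp12, Mmp19 and Mmp25 in the 19 named classes, 1 panel per gene, in CPM on a log axis. Points are levels over all cells of a class with 95% Poisson intervals, and open triangles stand for 0 UMIs and are drawn at the limit of 3 counts. Mmp8 stands at 1196 CPM in late neutrophil-like cells with every other class under 100 CPM, whereas Mmp9 is above 800 CPM in late neutrophil-like, osteoclast-like, immature osteoblast-like and marrow stromal-like cells.

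Mmp8, the neutrophil collagenase, was nearly absent at the promyelocyte stage and highest in late neutrophil-like cells. It had 2 UMIs in 326 promyelocyte-like cells (0.385 CPM, 0.0466 to 1.39). The 460 neutrophil myelocyte-like cells held 101 UMIs (19.01 CPM, 15.5 to 23.1), and the 722 late neutrophil-like cells held 2779 UMIs (1196 CPM, 1152 to 1241). The 3 intervals were apart. At least 1 Mmp8 UMI was found in 0.614% of promyelocyte-like cells, 6.30% of myelocyte-like cells and 69.7% of late neutrophil-like cells (66.2% to 73.0%). In chondrocyte-like cells, which should lack it and had a median of 21716 UMIs, the share was 0.569%. With each cell thinned to 2000 UMIs, the shares were 0 of 316, 2.39% and 79.9%, and 230 late neutrophil-like cells were too shallow and were left out. Late neutrophil-like cells held 69.3% of all Mmp8 UMIs of the cells kept. Marrow stromal-like cells had 0 UMIs, which allows up to 1.18 CPM.

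The step from myelocyte-like to late neutrophil-like cells was seen for Mmp8 and Mmp9. On the scale of log2 CPM with 1 CPM added, the difference was 5.90 for Mmp8 (5.63 to 6.19) and 5.05 for Mmp9 (4.87 to 5.24). Among 6473 genes with at least 10 CPM in either class, 18.7% were at least 2-fold higher in late neutrophil-like cells with intervals apart, so that a higher level at this step is common. Of the members, Mmp8 and Mmp9 were called by this rule, Mmp25 was too low to be tested, and Mmp12 and Mmp19 had at most 2 UMIs in each of these 2 classes.

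The late neutrophil-like class held 2 sub-clusters that differ in Ngp. In the 305 cells rich in Ngp, which is a gene of the myelocyte stage, Mmp8 was 1360.2 CPM (1301 to 1422) and Mmp9 was 1553 CPM (1489 to 1618). In the 417 cells low in Ngp, Mmp8 was 923 CPM (861 to 989) and Mmp9 was 1575 CPM (1493 to 1660.1). From the cells rich in Ngp to those low in it, Mmp8 was thus lower by a log2 ratio of -0.56 (-0.68 to -0.44), whereas for Mmp9 the ratio was 0.02 (-0.08 to 0.12), within counting error. The cells low in Ngp were shallower, with a median of 1946 UMIs against 4591, and held more Col1a1, a bone collagen gene that they should lack (1329 against 728 CPM). The part of free RNA in these levels was not tested. Mmp8 in the sub-cluster rich in Ngp was 71.6-fold (58.6 to 88.3) and in the sub-cluster low in Ngp 48.6-fold (39.5 to 60.4) that of myelocyte-like cells.

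Other granule genes were read along the same stages. Elane, Prtn3, Ltf, Ngp, Camp, Lcn2 and Retnlg are among the markers that named the classes, so that their levels describe the naming, whereas no Mmp gene was used for clustering. Of the azurophil granule genes, Elane was 6455 CPM in promyelocyte-like, 203 CPM in myelocyte-like and 13.3 CPM in late neutrophil-like cells, and Prtn3, the gene of proteinase 3, was 8949, 371 and 19.4 CPM. The specific granule genes had come up by the myelocyte stage. Ltf was 22.9 CPM in promyelocyte-like and 6139.7 CPM in myelocyte-like cells, and was then 9891 CPM in late cells rich in Ngp and 254 CPM in those low in Ngp. Lcn2, whose product lipocalin 2 binds MMP9, was 254, 9802 and 8766 CPM over the 3 stages. Mmp8, whose product is found in specific granules, was thus at 19.01 CPM in the myelocyte-like class in which Ltf and Lcn2 were already near or above their level in all late neutrophil-like cells (6263 CPM for Ltf). A list of 7 genes, mostly of gelatinase granules and secretory vesicles, held Itgam, Slc11a1, Fpr1, Fpr2, Cybb, Mgam and Padi4. Of these, 5 were called higher in late neutrophil-like than in myelocyte-like cells, against 18.7% of all genes tested. Fpr1, a receptor for bacterial peptides, differed by a log2 ratio of 4.66 and Slc11a1, a metal transporter, by 4.92. Cybb (-0.33) and Mgam (0.72) were not called.

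**Figure D2:**
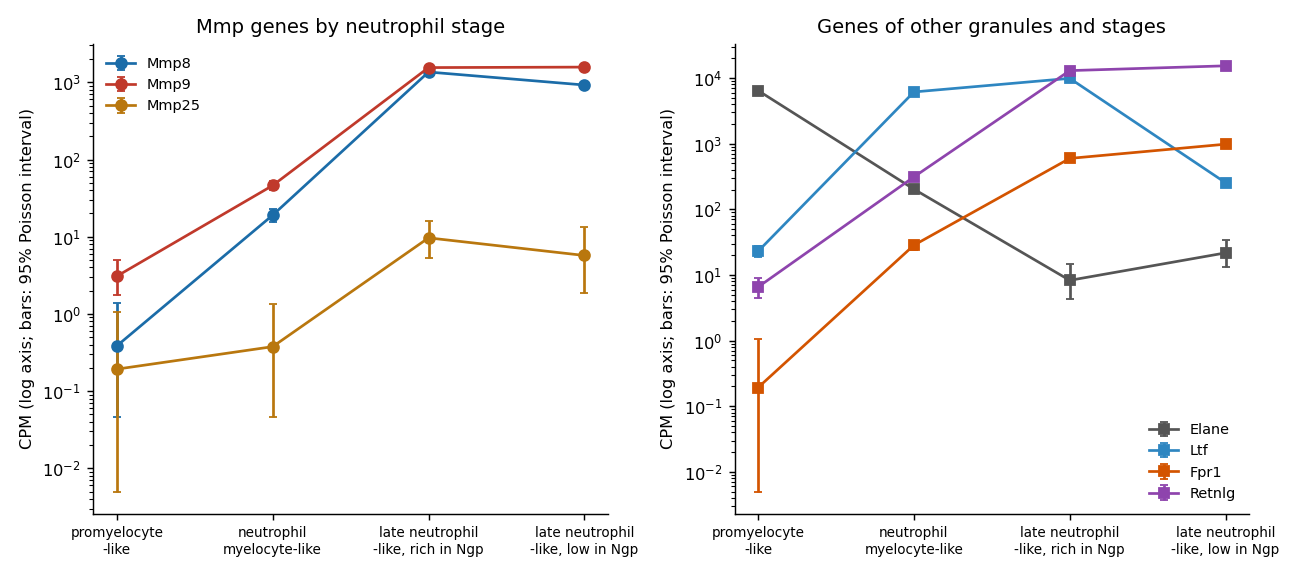
Levels along the neutrophil stages in CPM on a log axis with 95% Poisson intervals, with Mmp8, Mmp9 and Mmp25 on the left and 4 other genes on the right. The late neutrophil-like class is split into cells rich and low in Ngp. Mmp8 and Mmp9 climb between the myelocyte-like and the late cells, at the place where Retnlg and Fpr1 climb, whereas Elane is highest at the promyelocyte stage and Ltf is already at 6139.7 CPM in myelocyte-like cells.

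The border between stages moved with the clustering, and with it the stage ratios. With cells marked by Scrublet left out before clustering, 153 of the cells rich in Ngp were named myelocyte-like and the log2 ratio became 3.20 for Mmp8 and 3.36 for Mmp9. At Leiden resolution 1.5, 267 monocyte-like cells were named late neutrophil-like and the ratios became 1.92 and 1.93. With a minimum of 1600 genes before clustering, the class of that name shared 1 cell with the class described above and 263 with the monocyte-like class, and the Mmp9 ratio was -0.36. When the classes were kept and only their cells of at least 1600 genes were used, the ratios were 4.57 for Mmp8 and 3.80 for Mmp9.

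Many late neutrophil-like cells held both Mmp8 and Mmp9 UMIs. Of the 722 late neutrophil-like cells, 480 (66.5%) held both, 165 held Mmp9 alone, 23 held Mmp8 alone and 54 held neither. Each gene was found in most of these cells, so that many would hold both without any link between the genes. These counts are not corrected for depth, and whether the genes go together within cells was not tested. Myelocyte-like cells more often held Mmp9 alone (87 of 460 cells) than both (21) or Mmp8 alone (8). Monocyte-like cells showed another picture, with Mmp8 alone in 168 of 539 cells (31.2%), both in 29 and Mmp9 alone in 11.

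Monocyte-like cells had the next highest Mmp8. Their level was 72.6 CPM (65.8 to 79.8) in 539 cells, with a UMI in 36.6% of cells (32.5% to 40.8%) and in 13.3% after thinning to 2000 UMIs. The macrophage-like, conventional dendritic-like and plasmacytoid dendritic-like classes had 13.2, 12.4 and 19.3 CPM, and these 3 and the myelocyte-like class could not be put in order within counting error. Macrophage-like cells held their 39 UMIs in 12 of 234 cells, with 13 in 1 cell, and 35 of the UMIs were in cells with at most 5% mitochondrial UMIs. Osteoclast-like cells (6.83 CPM), erythroid-like cells (6.11 CPM) and endothelial-like cells (5.75 CPM) also overlapped. Of the 77 erythroid UMIs, 72 were in a cluster of 20 cells led by Retnlg and hemoglobin genes, of which Scrublet marked 13.

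The Mmp8 of monocyte-like cells was set beside that of Retnlg, a resistin-like gene that is a marker of late neutrophil-like cells (13877 CPM) and was the gene whose pattern over classes was closest to that of Mmp8. Late neutrophil-like cells held 8.62 Mmp8 UMIs per 100 Retnlg UMIs (8.29 to 8.96), with 10.5 in those rich in Ngp and 6.01 in those low in Ngp. Chondrocyte-like cells held 4.98 per 100 (2.76 to 8.35), B lineage-like cells 7.74 (5.49 to 10.6) and endothelial-like cells 10.5 (7.94 to 13.6). Fibroblast-like cells, with 5 Mmp8 UMIs, held 71.4 per 100 (17.9 to 261). Mature osteoblast-like cells, with 4 Mmp8 UMIs, held 23.5 per 100 (5.76 to 72.1). Monocyte-like cells held 29.8 per 100 (26.7 to 33.3), within the wide intervals of fibroblast-like and mature osteoblast-like cells. Of their sub-clusters, the 308 cells led by Vcan and Cxcl3 had 102 CPM of Mmp8 and 19.1 per 100 Retnlg UMIs, and the 231 cells led by F13a1 and Il6 had 54.4 CPM and 83.5 per 100 (68.8 to 101.3). The F13a1- and Il6-led cells also held azurophil granule genes, with Prtn3 at 1819 CPM and Elane at 564 CPM. In the Vcan- and Cxcl3-led cells these were 43.8 and 6.32 CPM. The Mmp8 per Retnlg interval of the Vcan- and Cxcl3-led cells overlapped those of macrophage-like and osteoclast-like cells (both 16.2 per 100). The Mmp9 UMIs of monocyte-like cells, in contrast, stood at 10.3 per 100 Retnlg UMIs beside 11.2 in late neutrophil-like cells. Whether free RNA had a part in the monocyte-like level was not tested.

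Mmp25, the membrane-anchored neutrophil enzyme, was sparse. It had 120 UMIs in the cells kept, 19 of them in 18 late neutrophil-like cells (8.18 CPM, 4.92 to 12.8), which was its highest class. Promyelocyte-like cells had 1 UMI and myelocyte-like cells had 2 (0.376 CPM). The ratio of late neutrophil-like to myelocyte-like cells was 21.7-fold, with a counting interval of 5.24 to 192, or 2.74 on the log2 scale with 1 CPM added. With 10 CPM added it was 0.81, and the 33 late cells of at least 1600 genes held 0 UMIs. The level was 9.66 CPM (5.28 to 16.2) in late cells rich in Ngp and 5.71 CPM (1.86 to 13.3) in those low in Ngp, and the 2 did not differ beyond counting error. Marrow stromal-like cells followed at 2.75 CPM, and their interval (1.11 to 5.67) overlapped that of late neutrophil-like cells. By number, chondrocyte-like cells, the largest class, held more Mmp25 UMIs than any other (38 UMIs, 0.855 CPM). T or NK-like, plasmacytoid dendritic-like, basophil or mast-like, B lineage-like, erythroid-like and osteoclast-like cells had 0 UMIs, which for osteoclast-like cells allows up to 0.732 CPM.

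Mmp9 had its UMIs in blood and in bone cells. Late neutrophil-like cells had the highest level (1561 CPM, 1511 to 1613) and osteoclast-like cells the next (1254 CPM, 1220.0 to 1289), followed by immature osteoblast-like cells (1180.0 CPM, 1153 to 1207) and marrow stromal-like cells (877 CPM, 841 to 914). These 4 intervals were apart, but cover counting error only. In the osteoclast-like class 31 cells held 81.55% of its Mmp9 UMIs, and in the immature osteoblast-like class 35 cells held 80.74%. At most 5% mitochondrial UMIs, osteoclast-like cells were below immature osteoblast-like cells (375 against 596 CPM). They were also below with at least 1600 genes before clustering. They stayed above at the higher Leiden resolution, with 3000 variable genes and with at most 20% mitochondrial UMIs. By number, immature osteoblast-like cells held 33.0% of the 22437 Mmp9 UMIs of the cells kept, osteoclast-like cells 22.9%, late neutrophil-like cells 16.2% and marrow stromal-like cells 9.95%. Macrophage-like cells (27.4 CPM, 21.8 to 34.1) and monocyte-like cells (25.1 CPM, 21.2 to 29.5) could not be told apart. Chondrocyte-like cells had 7.47 CPM, and promyelocyte-like cells (3.08 CPM) were among the lowest.

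**Figure D3:**
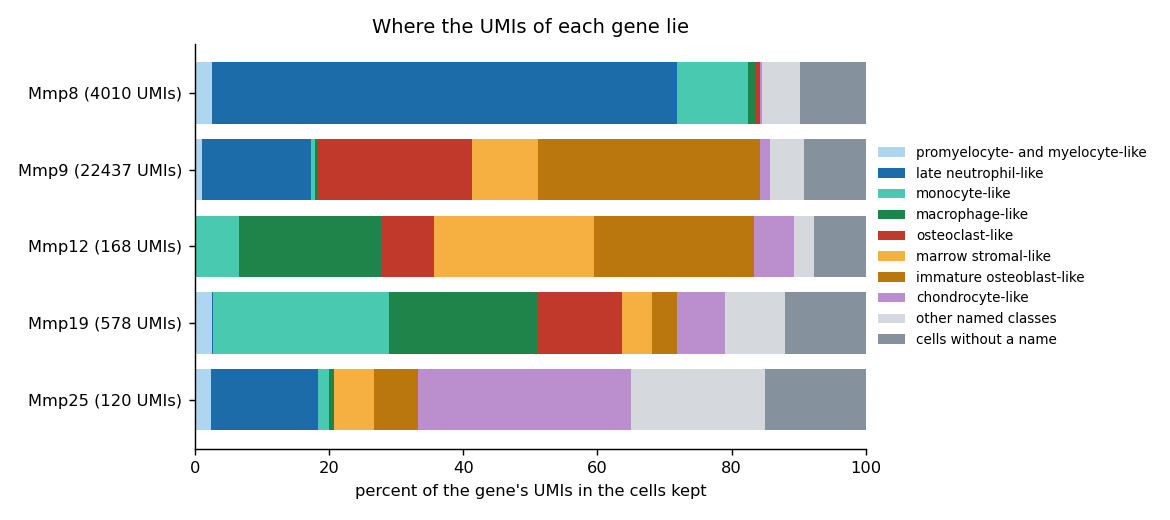
Share of each gene's UMIs, in percent of the UMIs in the cells kept, by class, with the number of UMIs of each gene beside its name. Late neutrophil-like cells (dark blue) hold 69.3% of Mmp8 but 16.2% of Mmp9, Mmp12 has no neutrophil UMIs, and monocyte-like and macrophage-like cells hold 26.1% and 22.2% of Mmp19.

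The spread of Mmp9 over cells differed between neutrophils and bone cells. A Mmp9 UMI was found in 645 of 722 late neutrophil-like cells (89.3%), with a median of 4 and at most 25 UMIs in a cell. Of osteoclast-like cells 59.3% held one, with a median of 2 and up to 313 UMIs, and of immature osteoblast-like cells 40.4%, with up to 624 UMIs. There were 89 cells with at least 50 Mmp9 UMIs. They held 57.6% of the Mmp9 UMIs, and 35 were immature osteoblast-like, 31 osteoclast-like and 11 marrow stromal-like, with 0 among late neutrophil-like cells. This cut and the highest counts are not corrected for depth. The median cell had 2646 UMIs in late neutrophil-like, 10557 in immature osteoblast-like and 23192 in osteoclast-like cells, so that the 0 says little about spread. Scaled to depth, the median Mmp9 level per cell was 1439.5 CPM in late neutrophil-like, 78.3 CPM in osteoclast-like and 0 CPM in immature osteoblast-like cells. The T or NK-like level of 704 CPM came from 1 cell with 227 of the 230 UMIs, and 1 pericyte or smooth muscle-like cell held 162 of 313. The intervals do not cover this spread between cells.

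Osteoclast-like cells and macrophage-like cells, which share a myeloid origin, differed most in Mmp9 among the members. Mmp9 was 45.7-fold higher (36.7 to 57.7) in the 177 osteoclast-like than in the 234 macrophage-like cells, or 5.47 on the log2 scale. Mmp12 (3.17 against 12.2 CPM) and Mmp19 (17.8 against 43.3 CPM) were lower in osteoclast-like cells, with log2 ratios of -1.66 (-2.43 to -0.88) and -1.24 (-1.65 to -0.83). Mmp8 (6.83 against 13.2 CPM) was not called. Of 8034 genes tested, 8.51% were called higher and 14.3% lower in osteoclast-like cells. The lower Mmp12 rests on 1 macrophage-like cell with 22 of the 36 UMIs of the class. Without it, an alternative chosen after seeing the data, macrophage-like cells had 4.81 CPM of Mmp12 (2.63 to 8.07) and the log2 ratio was -0.48 (-1.38 to 0.44), within counting error. With cells marked by Scrublet left out before clustering, the macrophage-like class, then of 94 cells, held 0 Mmp12 UMIs. Scrublet had marked 0 of the 234 macrophage-like cells. The new clustering kept 91 of them in the class and named 36 osteoclast-like and 11 monocyte-like. Against the C1qa-led macrophage-like cells alone, also chosen after seeing the data, the log2 ratio of Mmp19 was -0.52 (-1.03 to -0.0096), less than 2-fold. Genes that named these classes were checked, with Ctsk, the gene of the bone-resorbing protease cathepsin K, at 2195 against 10.5 CPM and Acp5, the gene of tartrate-resistant acid phosphatase, at 2967 against 362 CPM. Calcr, the calcitonin receptor gene of mature osteoclasts, had 0 UMIs in both. The macrophage genes C1qa, C1qb and Adgre1 were still found in osteoclast-like cells, at 367, 410.0 and 42.5 CPM.

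Within the osteoclast-like class Mmp9 went with the osteoclast genes. The 105 cells with a Mmp9 UMI had 3902 CPM of Acp5, 3194 CPM of Ctsk and 155 CPM of C1qa. The 72 cells without one had 1046, 143 and 803 CPM. The former were deeper, with a median of 25551 UMIs against 18217. Mmp19 showed the reverse, since the 43 osteoclast-like cells with a Mmp19 UMI had 1882 CPM of Acp5 and 771 CPM of C1qa, against 3328 and 233 CPM in the 134 others.

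The level of Mmp9 in osteoclast-like, immature osteoblast-like and marrow stromal-like cells was higher at a higher mitochondrial share. In the 58 osteoclast-like cells with at most 5% mitochondrial UMIs it was 375 CPM (343 to 410), and in the 119 cells above 5% it was 1674 CPM (1626 to 1722). In immature osteoblast-like cells the levels were 596 and 1454 CPM, and in marrow stromal-like cells 625 and 1029 CPM. The osteoblast-like cells led by Car3 and Bglap had 38.6 CPM (32.3 to 45.6) at or below 5% and 25.1 CPM (19.05 to 32.4) above, with intervals that touch. In late neutrophil-like cells, of which 675 were at or below 5%, they were 1568 and 1438 CPM with overlapping intervals. The barcodes left out for over 10% mitochondrial UMIs held another 6076 Mmp9 UMIs, 21.2% of those in the matrix, with 23.8% of the Acp5 and 24.4% of the Ctsk UMIs, and 5324 of the Mmp9 UMIs were in 19 barcodes. With a limit of 20% before clustering, the osteoclast-like level was 2149 CPM (2104 to 2194), above that of late neutrophil-like cells (1557 CPM). That clustering also named 23 of the osteoclast-like cells macrophage-like. The order of these 2 classes thus depends on the limit and the clustering done under it. Whether the mitochondrial share had a part in the Mmp9 levels was not tested.

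Within the osteoblast lineage Mmp9 was concentrated in 1 sub-cluster. The 194 cells led by Wisp2 and Caln1 had 3944 CPM (3851 to 4039), with 32 of the 89 cells of at least 50 UMIs. Those 32 held 84.7% of the Mmp9 UMIs of the sub-cluster. A Mmp9 UMI was found in 63.4% of its cells, and the median level per cell was 467 CPM. Its level was 2155 CPM in cells with at most 5% mitochondrial UMIs and 4553 CPM above. The Cxcl12- and Adipoq-led cells, with genes of marrow stroma, had 641 CPM (610.3 to 674) in 230 cells, and the cycling cells led by Birc5 and Cdk1 had 307 CPM (288 to 326) in 199 cells. The Vcan- and Wif1-led cells had 54.2 CPM (44.4 to 65.5) in 195 cells, and the Car3- and Bglap-led cells, with genes of mature osteoblasts, had 33.2 CPM (28.7 to 38.2) in 309 cells. These 5 intervals were apart. Of 9 osteoclast genes, Atp6v0d2, Dcstamp, Ocstamp and Tnfrsf11a had 0 UMIs and Calcr had 1 UMI in the Wisp2- and Caln1-led cells. The other 4 were found there, with Acp5 at 8.71 CPM, Nfatc1 at 30.2 CPM, Car2 at 42.97 CPM and Ctsk at 129.5 CPM. Ptprc, the leukocyte gene of CD45, had 0 UMIs. Of the 194 cells, 162 belonged to the immature osteoblast-like class and 24 to the marrow stromal-like class, and their leading genes held no marker of the osteoblast lists. When 3000 variable genes were used only 32 of them fell into the immature osteoblast-like class, whose Mmp9 was then 191 CPM. The Birc5- and Cdk1-led cells held 17 Atp6v0d2, 4 Dcstamp, 3 Tnfrsf11a, 3 Calcr and 0 Ocstamp UMIs. Their Acp5 was 54.6 CPM, Nfatc1 32.6 CPM, Car2 54.0 CPM and Ctsk 148 CPM, and Prtn3, an azurophil granule gene, was 80.2 CPM. Whether RNA of other cells had a part in their Mmp9 was not tested.

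HC-derived cells were compared with the others, since the reporter marks descendants of HCs. By the study's genotype, the Cre that sets the reporter also acts on 1 Irx3 allele. Origin and Irx3 dose thus cannot be told apart in this comparison. Cells holding over 14 UMIs of WPRE, an element of the reporter transcript, were taken as HC-derived. Of the 545 immature osteoblast-like cells 96 were HC-derived. Their Mmp9 was 2329.6 CPM against 782 CPM in the other 449, a log2 ratio of 1.57 (1.51 to 1.64), and a UMI was found in 75.0% against 33.0% of cells, or in 52.1% against 19.5% after thinning to 2000 UMIs. The interval does not cover the spread between cells, and 35 of the 545 cells held 80.7% of the Mmp9 UMIs of the class. Among 8297 genes tested, 1.89% were called higher in HC-derived cells. Mmp12 was also called, at 14.3 CPM (23 UMIs) against 3.65 CPM (17 UMIs), as the Mmp12 log2 ratio of 1.71 (0.89 to 2.51) shows. The HC-derived cells were deeper (a median of 12534.5 against 9797 UMIs). Acp5 was 17.99 CPM in them against 34.6 CPM. With at least 1 tdTomato UMI as the criterion the Mmp9 log2 ratio was 0.98.

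In pooled UMIs, the Mmp9 difference between HC-derived and other cells varied between sub-clusters and with the mitochondrial share. The intervals below do not cover the spread between cells, and some ratios rest on few HC-derived cells. In the Wisp2- and Caln1-led cells, 32 of 194 cells held 84.7% of the Mmp9 UMIs. HC-derived cells made up 34.0% of the Wisp2- and Caln1-led cells (27.4% to 41.2%) but 1.03% of the Vcan- and Wif1-led cells, which were low in Mmp9. Within the Wisp2- and Caln1-led cells the Mmp9 levels were 4683 CPM in 66 HC-derived and 3264 CPM in 128 other cells, a log2 ratio of 0.52 (0.45 to 0.59). The ratio was 0.83 in the Birc5- and Cdk1-led, 0.84 in the Cxcl12- and Adipoq-led and 1.88 in the Car3- and Bglap-led cells. Among the 157 immature osteoblast-like cells with at most 5% mitochondrial UMIs, the ratio was -0.075 (-0.29 to 0.13), with 572 CPM in 19 HC-derived and 602 CPM in 138 other cells, against 1.73 (1.65 to 1.80) above 5%. In the Wisp2- and Caln1-led cells it was -0.47 (-0.69 to -0.26) at or below 5%, with 11 HC-derived cells, and 0.52 above. In the Cxcl12- and Adipoq-led cells it was 1.70 (1.28 to 2.10) at or below 5%, with 5 HC-derived cells, and 0.43 above. In the Car3- and Bglap-led cells it was 1.15 (0.66 to 1.66) at or below 5%, with 64 HC-derived cells, and 3.87 above. In the Birc5- and Cdk1-led cells it was 0.45 (0.12 to 0.77) at or below 5%, with 19 HC-derived cells, and 0.88 above. In marrow stromal-like cells it was 2.20 at or below 5% (11 HC-derived cells) and 1.18 above. The median mitochondrial share was 5.97% in HC-derived and 5.74% in other immature osteoblast-like cells.

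**Figure D4:**
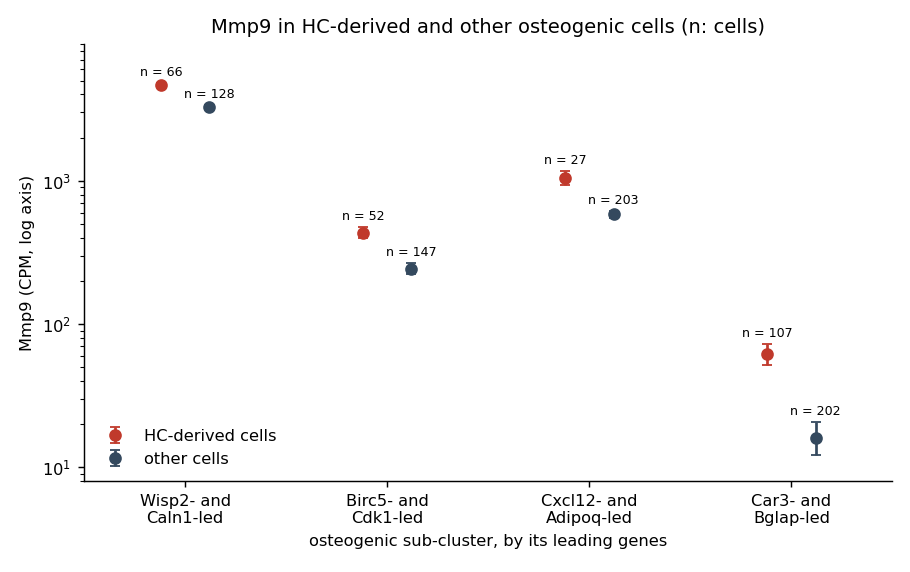
Mmp9 levels in CPM on a log axis in HC-derived (red) and other cells (dark) of 4 osteogenic sub-clusters, with 95% Poisson intervals and the number of cells. The HC-derived cells are above the others in each of the 4, from 4683 against 3264 CPM in the Wisp2- and Caln1-led cells to 61.6 against 16.0 CPM in the Car3- and Bglap-led cells, over all cells with at most 10% mitochondrial UMIs.

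Mmp12, the macrophage elastase, was low everywhere and not limited to macrophages. Its 168 UMIs gave 15.7 CPM (11.2 to 21.4) in marrow stromal-like cells, 12.2 CPM (8.53 to 16.9) in macrophage-like cells and 6.38 CPM (4.56 to 8.69) in immature osteoblast-like cells. The first pair could not be put in order, nor could macrophage-like and immature osteoblast-like cells, whose intervals touch. Osteoclast-like cells had 3.17 CPM (1.69 to 5.43) and monocyte-like cells 1.88 CPM (0.938 to 3.36). Promyelocyte-like, myelocyte-like and late neutrophil-like cells had 0 UMIs, which allows up to 1.29 CPM in the last, and 10 of the 19 classes had none. The macrophage-like level rests on the 1 cell with 22 UMIs given above. In marrow stromal-like cells the 40 UMIs were spread over 21 of 238 cells with at most 6 in a cell. Those 21 cells had 0 UMIs of Ptprc and of the macrophage gene Adgre1, 6.12 CPM of C1qa, and 8864 CPM of the stromal gene Cxcl12. In immature osteoblast-like cells, in contrast, the 29 cells with a Mmp12 UMI had 247 CPM of Acp5 and 19.1 CPM of Ptprc against 12.8 and 0.863 CPM in the 516 others. The marrow stromal-like level was 6.28 CPM in cells with at most 5% mitochondrial UMIs and 21.4 CPM above.

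Mmp19 was highest in the macrophage-like and monocyte-like classes. Macrophage-like cells had 43.3 CPM (36.1 to 51.5), monocyte-like cells 25.8 CPM (21.8 to 30.2), osteoclast-like cells 17.8 CPM (13.97 to 22.4) and marrow stromal-like cells 10.2 CPM (6.67 to 15.0). The interval of macrophage-like cells was apart from the others, which rests on 1 of their sub-clusters, and each of the next pairs of neighbours overlapped. A UMI was found in 63 of 234 macrophage-like cells (26.9%, 21.4% to 33.1%), or in 10.8% after thinning to 2000 UMIs, beside 1.66% of chondrocyte-like cells before thinning. Along the neutrophil stages Mmp19 had 13 UMIs in promyelocyte-like cells (2.50 CPM, 1.33 to 4.28), 2 in myelocyte-like and 1 in late neutrophil-like cells (0.430 CPM). Among macrophage-like cells it was higher in the 107 cells led by H2-Eb1, Cd74 and other genes of antigen presentation (77.2 CPM, 60.9 to 96.4) than in the 127 cells led by C1qa, Pf4 and Mrc1 (26.1 CPM, 19.4 to 34.3). The level of the C1qa-led cells overlapped that of monocyte-like cells, so that the top place of the class rests on the H2-Eb1-led cells. The leading genes of the latter hold no macrophage marker, so that they were named by the mean of the marker list, and H2-Eb1, H2-Aa, Cd74 and H2-Ab1 also lead the conventional dendritic-like cells, whose Mmp19 was 7.20 CPM. Monocyte-like cells led by Vcan and Cxcl3 had 34.3 CPM and those led by F13a1 and Il6 had 20.6 CPM, with intervals apart.

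Of the inhibitors of these enzymes, Timp1 and Timp3 were low in late neutrophil-like and osteoclast-like cells, where Timp2 was above both. Timp1, the gene of the inhibitor that binds MMP9, was highest in mature osteoblast-like cells (1081 CPM) and stood at 35.3 CPM in late neutrophil-like and 24.7 CPM in osteoclast-like cells. Immature osteoblast-like cells, which held Mmp9, had 459 CPM of Timp1. Timp2 was highest in fibroblast-like cells (1032 CPM). It was 234 CPM in late neutrophil-like, 340 CPM in macrophage-like and 243 CPM in osteoclast-like cells. Timp3 was at most 15.5 CPM in the neutrophil, monocyte, macrophage and osteoclast classes. Cd44, a cell-surface receptor that can hold MMP9, was 1046 CPM in monocyte-like and 1034 CPM in late neutrophil-like cells with overlapping intervals. Plaur, the receptor of the plasminogen activator urokinase, was highest in late neutrophil-like cells (1157 CPM), whereas Plg, the gene of plasminogen, had 1 UMI in all named classes.

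The other Mmp genes were mainly those of skeletal and stromal cells. Of 22 Mmp genes in the matrix, 20 had a UMI in the cells kept and 12 reached 10 CPM in a class, 4 of them members. The 8 others were Mmp2, Mmp11, Mmp13, Mmp14, Mmp15, Mmp16, Mmp17 and Mmp23, and all had their highest class among skeletal, stromal, vascular or fibroblast-like cells. Mmp14, the gene of a membrane-type enzyme, was 206 CPM in osteoclast-like and 194 CPM in macrophage-like cells, under its 894 CPM in fibroblast-like cells. Mmp13, a collagenase of bone, was 36.1 CPM in late neutrophil-like cells against 5080.5 CPM in marrow stromal-like cells, and Mmp2 was 14.2 against 851 CPM in fibroblast-like cells. The neighbours of Mmp8 on chromosome 9 were near 0 in neutrophils, with Mmp27 at 3.44 CPM and Mmp10 at 0.861 CPM in late neutrophil-like cells. At these low levels, late neutrophil-like cells were still the highest class of both. Mmp3 was at most 2.24 CPM in any class, Mmp7 and Mmp1b had 0 UMIs, and Mmp1a was not analysed here.

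The genes whose levels followed each member most closely over the 19 classes were taken by Pearson correlation of log2 CPM with 1 CPM added, among 11999 genes. For Mmp8 they were Retnlg (r = 0.95), Fpr1 (0.95), A530064D06Rik (0.93), Lilra6 (0.91) and Asprv1 (0.91), which all had their highest level in late neutrophil-like cells. For Mmp19 they were Cyp4v3 (0.93), Depdc7 (0.87), Cndp2 (0.86), Ccl9 (0.86) and Ctsc (0.86). For Mmp12 they were Ccl24 (0.85), Tmem106a (0.83), Nr1h3 (0.79), Tgm1 (0.78) and Tmem26 (0.78), of which 4 were highest in macrophage-like cells and Ccl24 in marrow stromal-like cells. For Mmp25 they were H2-Q10 (0.82), Ppm1n (0.81), Phf1 (0.76), Gpr27 (0.76) and Rab6a (0.76). Mmp9 had Bloc1s3 (0.82), Dlst (0.73), Tbc1d2b (0.72), Foxj2 (0.71) and Aifm2 (0.70). Bloc1s3, its closest, reached 11.4 CPM at most. The 19 classes share 1 library and differ in depth, and these values are a description. Between the members, r was 0.64 for Mmp12 and Mmp19 and 0.15 for Mmp8 and Mmp9.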

How the data were processed

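The authors deposited 10x Genomics UMI counts in 1 matrix, taken as 1 library, as whole-number counts per gene and barcode, with a second matrix for the reporter transcripts tdTomato and WPRE. Per the labels and the submitters' processing notes, reads were processed with Cell Ranger 3.1.0 on mm10 with the reporter sequences added, and Seurat 3 is also named. For the annotation release, the sources used here name none. The counts were used as deposited.

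Barcodes with at least 500 genes, at most 10% mitochondrial and at most 50% ribosomal protein UMIs were kept. Cells were scaled to 10000 UMIs, log-transformed and clustered with scanpy 1.11.5 and igraph 0.11.9 (2000 variable genes without Mmp genes, 30 principal components, 20 neighbours, Leiden resolution 1), and the myeloid and osteogenic cells were clustered again. Clusters were named by the markers among their top 10 genes by fold, with at least 3 markers at 10 CPM, or, with no marker among those genes, by the mean scaled level of a marker list. A name was withheld where Col1a1, Col2a1 or Ptprc levels did not go with it, or from shallow clusters without a leading marker. Osteogenic cells kept the name of the first clustering, except in sub-clusters led by markers of another lineage. Sub-clusters that failed the rule, such as those led by Wisp2 and Caln1 and by Birc5 and Cdk1, thus hold named cells. The clusters had been seen when this rule took its last form. Scrublet marked 588 of 14181 barcodes (4.15%), which were kept in the values and left out in an alternative. Cells were called HC-derived by the WPRE limit of the study's methods. CPM and intervals were computed with numpy 2.4.6, pandas 2.3.3 and scipy 1.17.1 in Python 3.11.15. Ratios are log2 of CPM with 1 CPM added, and their intervals come from the 2 counts. A gene was called between 2 classes when it had at least 10 CPM in either, differed at least 2-fold and its intervals were apart, without a p-value. The calling script was tested on simulated data. Shares of cells with a UMI were also computed after thinning each cell to 2000 UMIs. Correlated genes were the 5 with the highest r for each member among genes with at least 10 CPM in a class and at least 100 UMIs. The members and lists were chosen with earlier results of these data known. Azu1 and Mmp1a are not analysed here.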

Additional observations from a re-analysis of the deposited data

How the results depend on the processing

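Of 143 alternative values, 61 lay within the counting interval of the value reported, 78 lay outside it and 4 had the other sign. In the following, late levels are those of late neutrophil-like cells and stage ratios are log2 ratios of late neutrophil-like over myelocyte-like cells. The cells under that name changed with the clustering. With at least 1600 genes before clustering, 263 of its 288 cells were monocyte-like in the classes described above and 1 was late neutrophil-like. With 3000 variable genes, 388 of its 967 cells were monocyte-like, and at Leiden resolution 1.5, 267 of 839. With at least 1600 genes before clustering, the Mmp8 late level was 109.8 CPM, the Mmp25 late level 0.461 CPM, Mmp9 was 1291 CPM in osteoclast-like and 1497 CPM in immature osteoblast-like cells, the stage ratios were 1.45 for Mmp8, -0.36 for Mmp9 and -0.077 for Mmp25, and the HC-derived Mmp9 ratio was 1.84. With at most 5% mitochondrial UMIs before clustering, the Mmp8 late level was 1377 CPM, macrophage-like Mmp12 was 7.52 CPM and Mmp19 31.3 CPM, and the stage ratios were 3.23 for Mmp8 and 3.39 for Mmp9. That clustering gave no osteoclast-like or immature osteoblast-like class and so no value for them. Its macrophage-like class of 159 cells held 57 of the osteoclast-like and 96 of the macrophage-like cells described above. At Leiden resolution 1.5, the late levels were 558 CPM for Mmp8 and 3.89 CPM for Mmp25, Mmp9 was 1584.5 CPM in osteoclast-like and 1387 CPM in immature osteoblast-like cells, the stage ratios were 1.92, 1.93 and 1.19 for Mmp8, Mmp9 and Mmp25, and the HC-derived ratio was 1.87. With 3000 variable genes, these values were 488 and 3.17 CPM, 1289.5 and 191 CPM, 1.89, 1.83 and 0.98, and 1.24. Without cells marked by Scrublet, the Mmp8 late level was 1355 CPM, osteoclast-like Mmp9 1124 CPM, macrophage-like Mmp12 0 CPM and Mmp19 32.6 CPM in a class of 94 cells, and the stage ratios were 3.20 for Mmp8 and 3.36 for Mmp9. As means over cells, Mmp8 was 1099 CPM, osteoclast-like Mmp9 1105.5 CPM, macrophage-like Mmp12 6.43 CPM and Mmp19 57.1 CPM, the Mmp8 stage ratio was 5.63 and the HC-derived ratio 2.01. With 10 CPM added, the stage ratios were 5.38, 4.81 and 0.81 for Mmp8, Mmp9 and Mmp25. With at least 1 tdTomato UMI, the HC-derived ratio was 0.98.

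The next alternatives were chosen after seeing the data. With at most 20% mitochondrial UMIs, Mmp9 was 2149 CPM in osteoclast-like and 1244 CPM in immature osteoblast-like cells, the stage ratios were 5.47 for Mmp8 and 4.61 for Mmp9, and the HC-derived ratio was 1.86. With the classes kept and only their cells of at least 1600 genes, the Mmp8 late level was 483 CPM, the Mmp25 late level 0 CPM and the stage ratios 4.57, 3.80 and -0.47 for Mmp8, Mmp9 and Mmp25. With the classes kept and at most 5% mitochondrial UMIs, Mmp9 was 375 CPM in osteoclast-like and 596 CPM in immature osteoblast-like cells, and the HC-derived ratio was -0.075. Without the macrophage-like cell with the most Mmp12 UMIs, Mmp12 was 4.81 CPM in that class, and in C1qa-led cells alone Mmp19 was 26.1 CPM. With the classes kept, the stage ratios of Mmp8 were 5.88 at most 5% mitochondrial UMIs and 5.89 without cells marked by Scrublet, within the interval of the value reported. The new clusterings moved cells between the monocyte-like, myelocyte-like and late neutrophil-like classes. Without cells marked by Scrublet, 36 macrophage-like cells were named osteoclast-like. At Leiden resolution 1.5, 57 osteoclast-like cells were named macrophage-like, and 120 stayed osteoclast-like. With at most 20% mitochondrial UMIs, 23 osteoclast-like cells were named macrophage-like. The cause of these moves was not tested. Late neutrophil-like cells were shallow, and Mmp25 and Mmp12 rest on few UMIs.

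No paired analysis was possible because the series was taken as 1 library, whose matrix cannot be split by the numbered entries.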
